A study of Homo sapiens with 4 samples.

Results

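The genes described here make the brush border of the absorptive cell of the small intestine, the enterocyte, and the machinery by which it digests and takes up food. They are 42 of the 37515 genes in a count table from Caco-2 cells and were chosen by symbol as digestive enzymes, proteins of the microvillus, nutrient transporters and proteins of chylomicron assembly. Caco-2 is an established human colorectal carcinoma line that takes on features of enterocytes when a confluent layer is kept in culture. RNA-seq was done on 4 libraries of Caco-2 cells, 2 from unstimulated cells collected at 0 h and 2 from cells exposed to interferon gamma (IFNγ, 60 ng/ml) for 3 h. All cells carried the name WT in the labels and had grown for 15 days on transwell filters, and IFNγ was given from the basal side. The labels call the control cells media treated but place them at 0 h, so the effect of IFNγ and that of the 3 h of handling cannot be told apart. The cells come from a single tumor-derived line, and no source used here says whether the libraries of a group came from separate cultures, so the p-values measure the spread between these libraries, which may be technical.

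An enterocyte carries on its luminal face a dense carpet of microvilli, each built around a bundle of actin filaments that is crosslinked by villin, espin and plastin 1 and tied to the membrane by ezrin and class 1 myosins. Protocadherins at the tips link neighboring microvilli, and a complex of USH1C and MYO7B anchors them to the actin core. The membrane over this core holds the enzymes that split disaccharides and peptides and the transporters that take up the products, while absorbed fat is rebuilt to triglyceride in the endoplasmic reticulum and packed onto apolipoprotein B as chylomicrons. IFNγ is a cytokine of T cells that also acts on epithelial cells.

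The libraries held 9990952 and 7171455 counts in unstimulated cells and 10365346 and 7529914 counts after IFNγ, so that 1 CPM, the counts scaled by the TMM method to a common library total, stood for 7.14 to 10.3 counts. Of 10 markers of intestinal epithelium, 9 had at least 10 counts in every library, and their summed level was 6026 to 6727 CPM in unstimulated cells and 6976 to 7757 CPM after IFNγ. CDX1 had at most 5 counts. Of the markers of other cell types, some defining ones were at or near 0, with 0 counts in every library for CLCA1 (goblet cells), DEFA5 (Paneth cells), CHGA, NEUROD1 and GCG (enteroendocrine cells) and KDR (endothelium), and at most 2 counts for PTPRC (leukocytes). Others were present, with ZG16 of the goblet cell list at 932 to 1515 counts and ITLN2 of the Paneth cell list at 43 to 66. LYZ of the leukocyte list had 12 to 26 counts, CHGB of the enteroendocrine list 7 to 14 and VWF of the endothelium list 8 to 18. Of the fibroblast list COL1A1 had 638 to 1842 counts, COL3A1 53 to 117 and PDGFRB 30 to 68, while COL1A2 and DCN had at most 1. Of the colonocyte list GUCA2A had 155 to 236 counts and CEACAM7 11 to 16, while CA1 and MS4A12 had at most 2. All 5 liver markers were present, summing to 5033 to 5666 CPM in unstimulated cells and 5701 to 5720 CPM after IFNγ. As a check of the labels, the IFNγ-induced gene IRF1 was at 19.3 and 20.2 CPM in unstimulated cells and at 1201 and 1085 CPM after IFNγ.

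Before stimulation, the most abundant of the enterocyte genes were those of chylomicron assembly. Levels are compared between genes only as RPKM, the CPM scaled by the TMM method and divided by the kilobases of annotated exon. APOA1, an apolipoprotein of chylomicrons and high density lipoprotein, had a level of 2453 and 2735 RPKM in the unstimulated libraries and 2904 and 2829 RPKM after IFNγ. APOC3, an inhibitor of lipoprotein lipase, stood at 2501 and 2490 RPKM before and 2953 and 2970 RPKM after, and the unstimulated means of APOA1 (2594 ± 199, SD, n = 2) and APOC3 (2495 ± 7.46) lay within the spread of APOA1. APOA4, an apolipoprotein made by the intestine in response to fat, followed with 1206 and 1133 RPKM in unstimulated cells and 1436 and 1473 RPKM after IFNγ. These 3 genes lie beside each other on chromosome 11.

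The next levels belonged to the microvillus and to the other end of lipid handling. CDHR5, a protocadherin of the microvillus tip, had 622 and 627 RPKM in unstimulated cells and 770 and 709 RPKM after IFNγ. APOB, the structural protein of the chylomicron, had 327 and 273 RPKM before and 382 and 257 RPKM after, and VIL1, which encodes villin, had 229 and 229.6 RPKM before and 263 and 264 RPKM after. The APOB groups overlapped, whereas both IFNγ libraries of CDHR5 and of VIL1 lay above both unstimulated ones. FABP1, a cytosolic fatty acid carrier shared with liver, had 174 and 199.9 RPKM before and 159 and 158 RPKM after. EZR, which encodes ezrin, had 110.1 and 121 RPKM before and 165 and 186 RPKM after. DGAT1, which catalyzes the last step of triglyceride synthesis, had 104 and 106 RPKM before and 118 and 109 RPKM after, and SLC26A3, the chloride and bicarbonate exchanger of the apical membrane, had 64.3 and 83.5 RPKM before and 92.2 and 85.2 RPKM after. Both IFNγ libraries lay below both unstimulated ones for FABP1 and above them for EZR, DGAT1 and SLC26A3. All 10 of these genes stood at or above percentile 96.9 of the 14820 tested genes. USH1C, at 73.6 ± 1.02 RPKM, could not be ordered against SLC26A3, at 73.9 ± 13.6 RPKM. With the length of the canonical transcript in place of all annotated exons, a choice made after the data were seen, FABP1 moved from rank 7 to rank 4 (901 RPKM) and DPP4 from rank 17 to rank 8 (182 RPKM).

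At the other end, 5 genes of classic small intestinal products were barely present. The amino acid transporter SLC6A19 had an unstimulated level of 0.306 ± 0.0933 RPKM (SD, n = 2), the maltase-glucoamylase gene MGAM had 0.305 ± 0.119 RPKM, and the neutral endopeptidase gene MME had 0.173 ± 0.0632 RPKM. ENPEP, which encodes glutamyl aminopeptidase, had 7 and 4 counts before stimulation and 4 and 3 after IFNγ. CD36, a fatty acid receptor, had 0 and 1 counts before and 1 and 0 after. ENPEP and CD36 did not pass the filter on low counts and were not tested, and a change in either was not detectable at this depth. Within the disaccharidases, SI stood at 69.9 ± 2.28 RPKM before stimulation against 9.69 ± 1.19 RPKM for TREH and 6.91 ± 0.191 RPKM for LCT. Within the sugar transporters, the fructose transporter SLC2A5 (47.4 ± 0.688 RPKM) stood above the sodium-glucose transporter SLC5A1 (5.19 ± 1.3 RPKM) and the basolateral glucose transporter SLC2A2 (4.89 ± 0.745 RPKM).

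**Figure D1:**
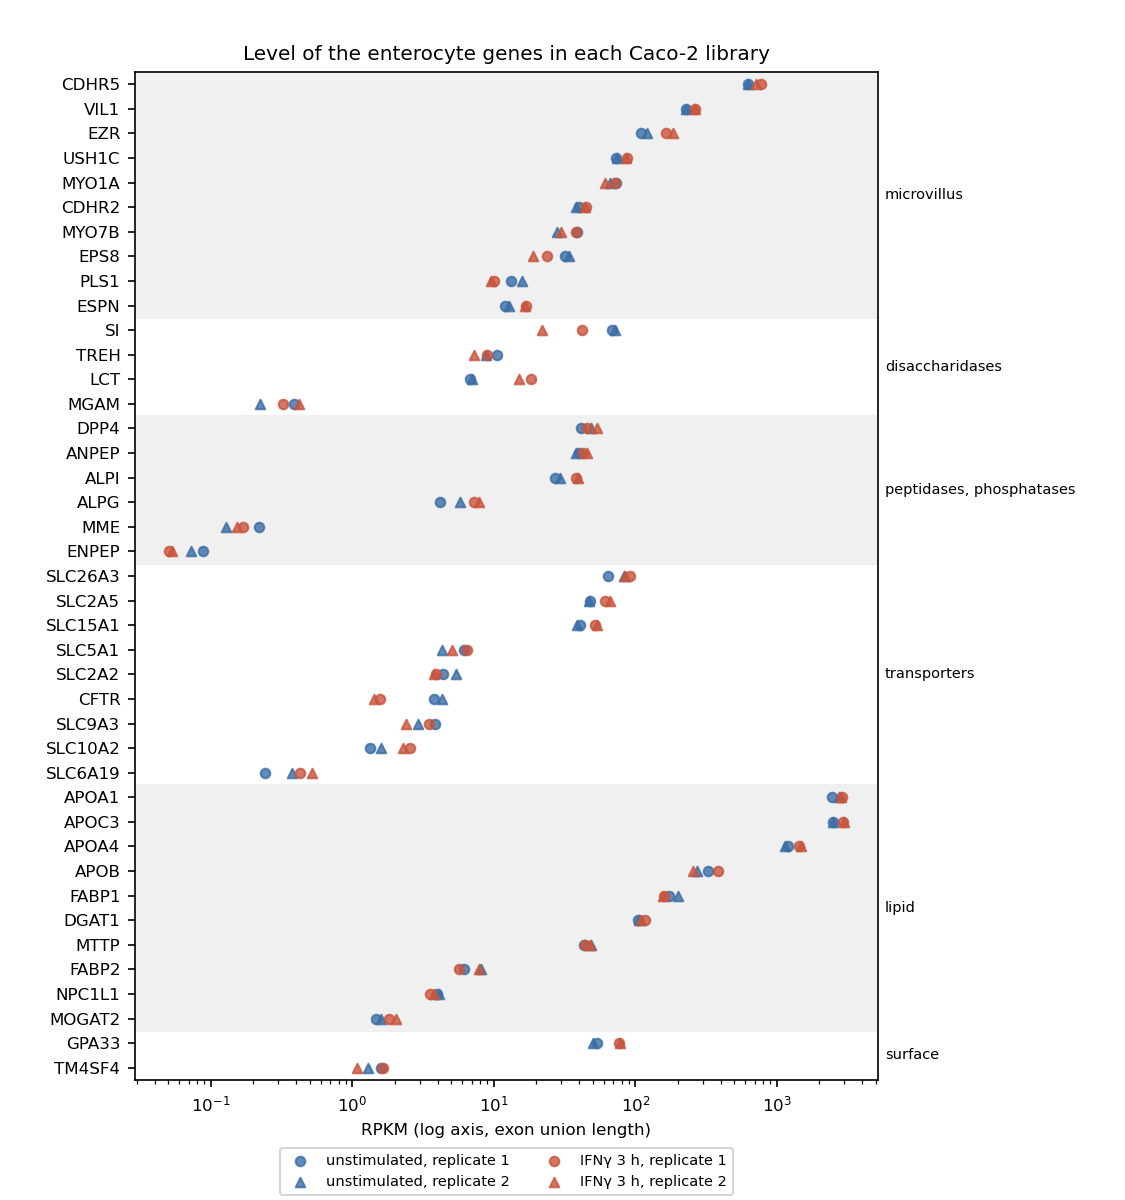
Level of 41 enterocyte genes in RPKM on a log axis, grouped by role and ordered by unstimulated level. Each point is a library (blue unstimulated, red IFNγ 3 h, circles replicate 1, triangles replicate 2), and CD36, with 0 or 1 counts, is not drawn. APOA1, APOC3 and APOA4 sit above 1000 RPKM in every library, and MGAM, MME, ENPEP and SLC6A19 sit below 1 RPKM.

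After 3 h of IFNγ, 29 of the 40 tested enterocyte genes did not pass the test, and those that did pass included opposite directions within the same role. LCT rose, CFTR and SI fell, and these 3 were the called genes, that is, those with a Benjamini-Hochberg adjusted p-value under 0.05 in edgeR's quasi-likelihood test and a log2 fold change beyond 1 in either direction. Over all 14820 genes tested, 7.28% were called, 2.88% higher and 4.40% lower, beside 1 higher and 2 lower among the 40 tested enterocyte genes. At an adjusted p-value under 0.05 and any fold, 7 rose (LCT, EZR, GPA33, ALPI, ESPN, SLC2A5 and SLC15A1) and 4 fell (CFTR, SI, EPS8 and PLS1), where 9.02% of all genes passed as higher and 11.0% as lower. Over the enterocyte genes the median log2 fold change was 0.16 (range -1.43 to 1.27) and -0.01 over all genes tested. Of the 40 enterocyte genes 27 were above 0, as were 7326 of all 14820 genes tested. Both IFNγ libraries were above both unstimulated libraries for 21 of the 40 (31.6% of all genes tested) and below them for 7 (30.8%). In whole cell layers, fewer cells of a type and less RNA per cell cannot be told apart.

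**Figure D2:**
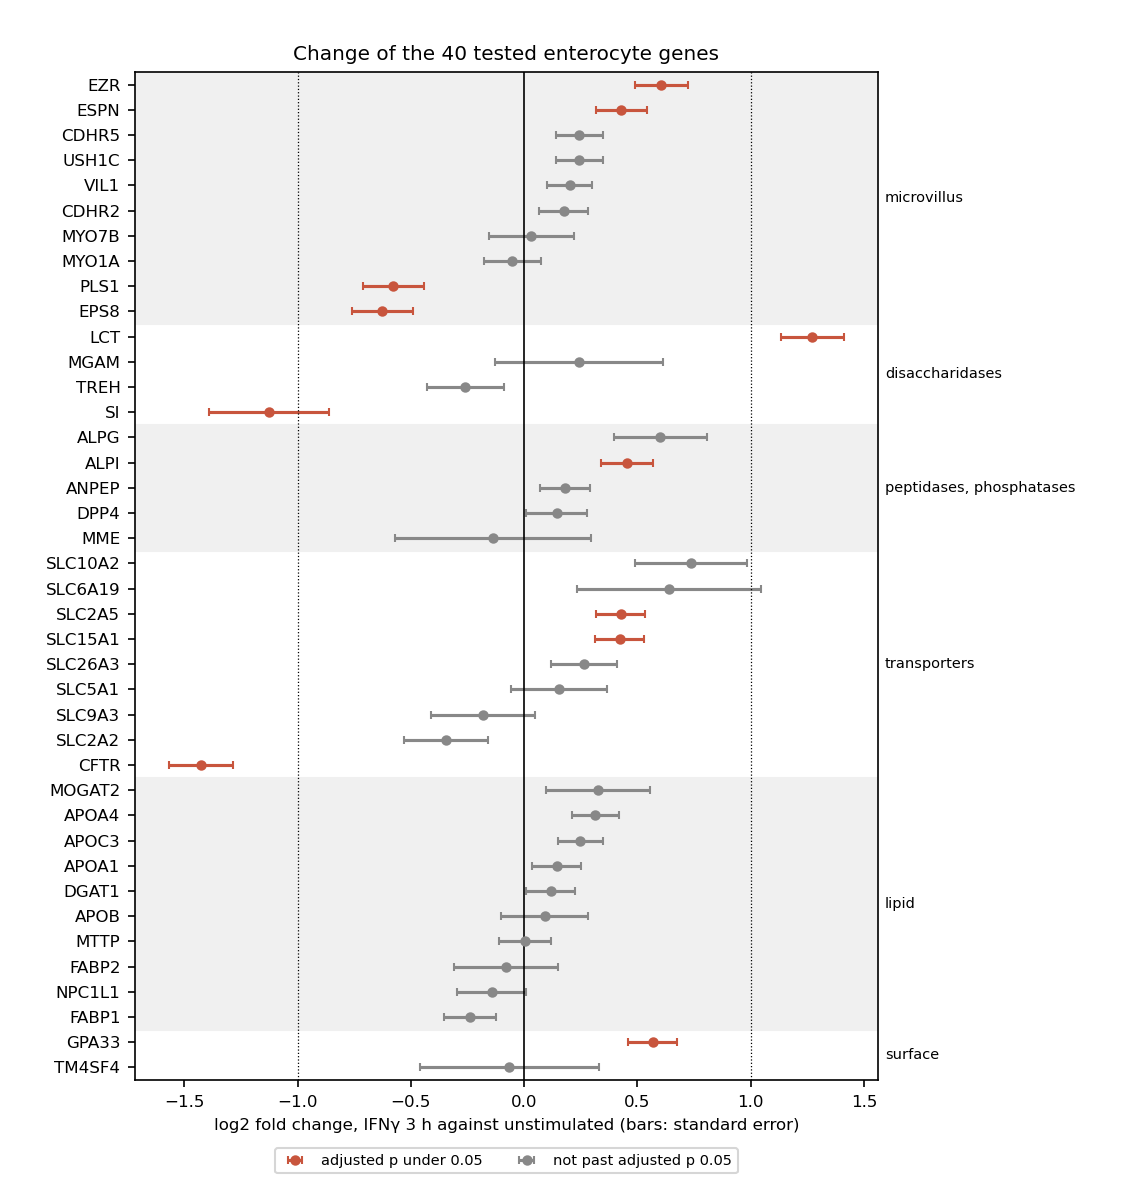
Log2 fold change of the 40 tested enterocyte genes, IFNγ 3 h against unstimulated, with the standard error as bars, grouped by role. Red points passed an adjusted p-value of 0.05, gray points did not, and the dotted lines mark a log2 fold change of 1 in either direction, which LCT, SI and CFTR pass.

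The 10 microvillus genes were all tested, and 2 rose, 2 fell and 6 did not pass. Ezrin links the plasma membrane to actin and is active when phosphorylated. Its gene EZR was at 362 and 396 CPM in unstimulated cells and at 543 and 611 CPM after IFNγ (log2 fold change 0.61, standard error, SE, 0.117, adjusted p = 0.0122, edgeR). ESPN, which encodes the actin bundler espin, was at 83.8 and 88.8 CPM before and 117 and 115 CPM after (log2 fold change 0.43, SE 0.112, adjusted p = 0.0362, edgeR). In both genes the groups did not overlap. EPS8, a protein of the microvillus tip that caps and bundles actin, fell from 273 and 291 CPM to 202 and 163 CPM (log2 fold change -0.63, SE 0.135, adjusted p = 0.0185, edgeR). PLS1, which encodes plastin 1, the third of the bundlers named above, fell from 70.4 and 83.9 CPM to 52.6 and 50.6 CPM (log2 fold change -0.58, SE 0.136, adjusted p = 0.0252, edgeR). All 4 changes stayed below 2-fold. Among the bundlers, then, ESPN rose and PLS1 fell, while VIL1 did not pass (log2 fold change 0.20, adjusted p = 0.197). That contrast was not kept with the trend of GC content and length removed, a setting given below. None of these bundlers then passed, with log2 fold changes of 0.19 for ESPN, -0.04 for PLS1 and 0.40 for VIL1 (adjusted p = 0.0723, edgeR).

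The genes of the link between microvillus tips did not pass. The log2 fold change was 0.24 for CDHR5 (adjusted p = 0.141, edgeR), 0.17 for CDHR2, its partner in the link (adjusted p = 0.288), and 0.24 for USH1C, the scaffold below them (adjusted p = 0.14). Both IFNγ libraries lay above both unstimulated ones in all 3. The myosins MYO1A, which tethers the membrane to the core, and MYO7B, which works with the scaffold, had log2 fold changes of -0.05 and 0.03, with overlapping groups. The summed level of the 10 microvillus genes was 6010 and 5973 CPM before and 7034 and 6691 CPM after. Most of that sum was CDHR5 (mean 2412 CPM before and 2855 CPM after) and VIL1 (1579 and 1815 CPM), neither of which passed. Without unstimulated replicate 1 the adjusted p-value of EZR was 0.0578. ESPN lost its adjusted p-value with any of the 4 libraries left out (0.0708 to 0.171), and PLS1 lost it without unstimulated replicate 2 (0.117).

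Of the 4 disaccharidase genes, all tested, 1 rose and 1 fell, the genes of lactase and of sucrase-isomaltase. LCT encodes lactase-phlorizin hydrolase, which splits milk sugar and is the disaccharidase of the infant gut. LCT (ENSG00000115850, GRCh37 chromosome 2, 136545420 to 136594754) had 458 and 331 counts in unstimulated cells and 1236 and 726 counts after IFNγ, or 44.6 and 46.4 CPM against 120.2 and 99.1 CPM. The rise was 2.41-fold (log2 fold change 1.27, SE 0.139, adjusted p = 0.00203, edgeR), and the log2 fold change was 1.43 between the libraries numbered 1 and 1.09 between those numbered 2. It was called under all 13 alternative settings, with log2 fold changes from 1.11 to 1.38.

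SI encodes sucrase-isomaltase, which splits sucrose and starch fragments and is widely used as a marker of differentiated enterocytes. SI (ENSG00000090402, GRCh37 chromosome 3, 164696686 to 164796284) had 4306 and 3134 counts before and 2651 and 984 counts after, or 419 and 439 CPM against 258 and 134 CPM. The fall was 1.13 on the log2 scale (log2 fold change -1.13, SE 0.266, adjusted p = 0.0256, edgeR). Both IFNγ libraries were below both unstimulated libraries, but they differed from each other more than the unstimulated ones did, with a log2 fold change of -0.70 between the libraries numbered 1 and -1.71 between those numbered 2. The size of the fall rested on IFNγ replicate 2. Without that library the log2 fold change of SI was -0.75 and the gene was no longer called, and without IFNγ replicate 1 it was -1.69. DESeq2 gave -1.14 with an adjusted p-value of 0.0536. MGAM had 43 and 17 counts before and 36 and 33 after, and the groups overlapped. TREH, which encodes trehalase, stood at 33.5 and 28.2 CPM before and 28.3 and 23.2 CPM after, also with overlap (log2 fold change -0.26, adjusted p = 0.32, edgeR). About 22.5% of the exon length of TREH overlaps PHLDB1 on the opposite strand, and the sources used here do not say whether strand was used in counting.

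The 250 bases before the annotated start of SI are shown because they hold a motif of the type bound by CDX2, the intestinal homeobox factor, whose own gene rose in these libraries (177.7 and 176.9 CPM before, 409 and 405 CPM after, log2 fold change 1.20, adjusted p = 0.00117, edgeR). They are from RefSeq on GRCh38.p14, chr3:165078497-165078746 on the minus strand, 5′ to 3′, with the letters CAATAAA in capitals.
SI: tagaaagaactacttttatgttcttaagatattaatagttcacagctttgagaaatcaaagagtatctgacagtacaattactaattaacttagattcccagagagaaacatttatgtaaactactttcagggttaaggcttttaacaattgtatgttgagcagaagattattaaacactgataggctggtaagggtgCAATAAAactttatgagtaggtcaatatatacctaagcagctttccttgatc
The motif begins 52 bases before the start, and these letters, on either strand, occur in 1406 of the 35116 promoter windows of 300 bases in the table (250 bases before to 50 after a start). A match describes the letters and not a bound site. Among the 32 enterocyte genes with a window, MGAM, MYO1A and SLC10A2 held it too, and none of those 3 passed an adjusted p-value of 0.05.

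**Figure D3:**
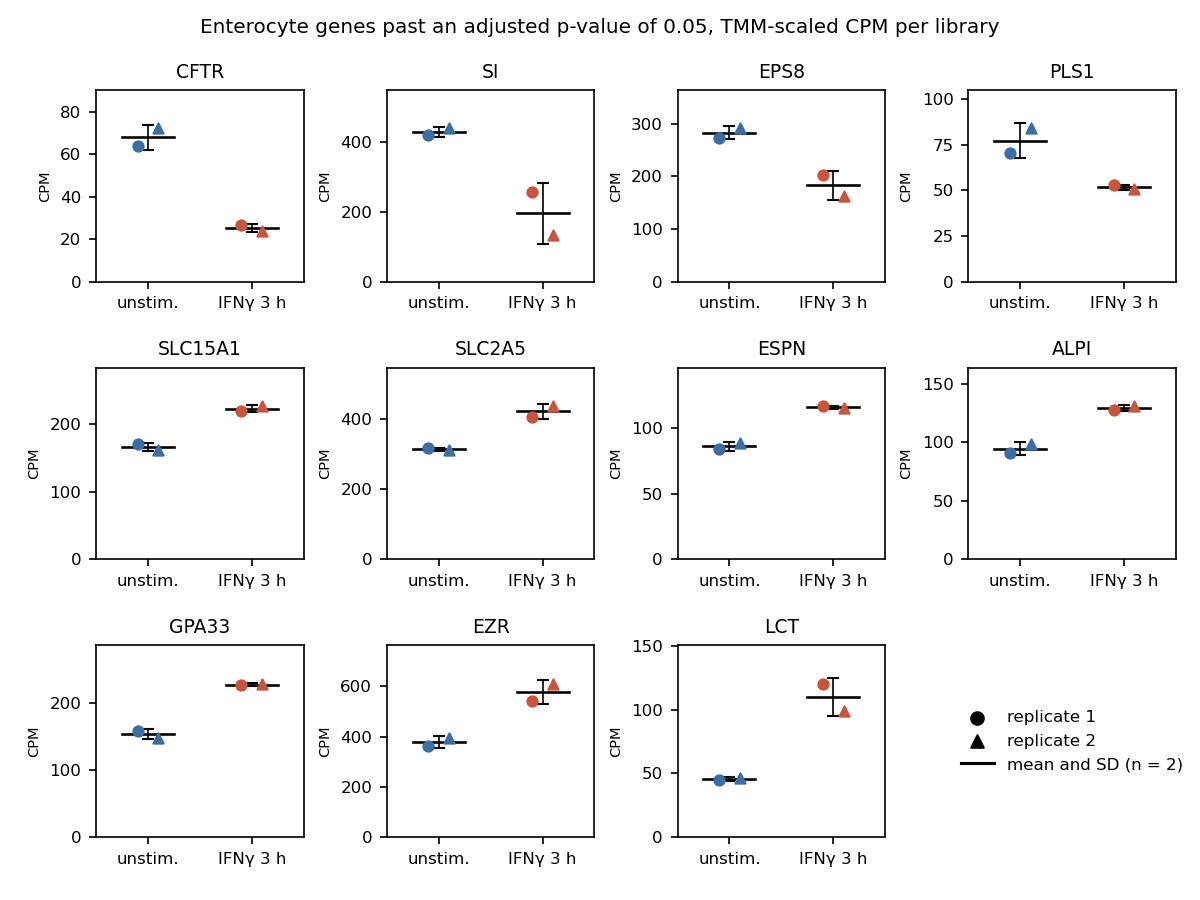
CPM of the 11 enterocyte genes past an adjusted p-value of 0.05, each panel with its own axis from 0. Points are libraries (circles replicate 1, triangles replicate 2, blue unstimulated, red IFNγ 3 h), and lines and bars are the mean and SD of 2 libraries. The groups do not overlap in any panel, and the IFNγ libraries of SI lie farthest apart.

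Of the 6 peptidase and phosphatase genes 5 were tested, and 1 rose. ALPI encodes intestinal alkaline phosphatase, which dephosphorylates bacterial lipopolysaccharide at the brush border. ALPI was at 90.7 and 98.5 CPM in unstimulated cells and 128 and 131 CPM after IFNγ, with no overlap (log2 fold change 0.45, SE 0.114, adjusted p = 0.0314, edgeR). The adjusted p-value of ALPI was 0.162 without unstimulated replicate 1, 0.0596 without IFNγ replicate 1 and 0.0905 without IFNγ replicate 2. ALPG, the germ cell type alkaline phosphatase from the same cluster on chromosome 2, had 107 and 103 counts before and 184 and 143 counts after, a log2 fold change of 0.60 that did not pass (adjusted p = 0.0793). ALPP, the placental enzyme of that cluster, had 61 and 52 counts before and 166 and 108 after and was called higher (log2 fold change 1.24, adjusted p = 0.00741). The 3 genes are related, and the sources used here do not say how reads matching more than 1 of them were counted. The peptidases showed no change past the test. ANPEP, or aminopeptidase N, was at 202 and 193 CPM before and 216 and 231 CPM after, with no overlap (log2 fold change 0.18, adjusted p = 0.281, edgeR). DPP4, dipeptidyl peptidase 4, was at 592 and 707 CPM before and 660.5 and 774 CPM after, with overlapping groups (0.14, adjusted p = 0.491, edgeR). MME had 22 and 9 counts before and 17 and 11 after.

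Among the 9 transporter and channel genes, all tested, 2 rose and 1 fell. CFTR is the cyclic AMP-gated chloride channel of the apical membrane, the channel of crypt secretion whose loss causes cystic fibrosis, and it showed the largest fall of the 40 genes. CFTR (ENSG00000001626, GRCh37 chromosome 7, 116927174 to 117356025) had 655 and 516 counts in unstimulated cells and 273 and 175 counts after IFNγ, or 63.8 and 72.3 CPM against 26.5 and 23.9 CPM. After IFNγ 0.372 of the unstimulated level was left (log2 fold change -1.43, SE 0.142, adjusted p = 0.00154, edgeR). All 13 alternatives called CFTR lower, with log2 fold changes from -1.52 to -1.08. The 250 bases before its annotated start are shown because none of the 4 motifs given below was found there, on GRCh38.p14, chr7:117479775-117480024 on the plus strand, 5′ to 3′.
CFTR: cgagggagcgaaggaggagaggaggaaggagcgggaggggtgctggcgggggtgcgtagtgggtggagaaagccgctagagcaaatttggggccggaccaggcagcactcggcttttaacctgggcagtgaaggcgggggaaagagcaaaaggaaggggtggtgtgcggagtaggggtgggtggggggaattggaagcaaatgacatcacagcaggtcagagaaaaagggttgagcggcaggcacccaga
That absence says only that these letters are not in this window.

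The transporters that rose carry fructose and peptides. SLC2A5, the fructose transporter GLUT5 of the brush border, was at 317 and 311 CPM before and 407 and 438 CPM after (log2 fold change 0.43, SE 0.107, adjusted p = 0.0316, edgeR). SLC15A1, the proton-coupled carrier of dipeptides and tripeptides PEPT1, was at 171 and 163 CPM before and 219.6 and 227 CPM after (log2 fold change 0.42, SE 0.108, adjusted p = 0.0338, edgeR). Neither gene's groups overlapped, and both rises were near 1.34-fold. With single libraries left out, SLC15A1 lost its adjusted p-value in all 4 fits (0.0712 to 0.124). SLC2A5 lost it in 3, at 0.103 without unstimulated replicate 1, 0.0884 without unstimulated replicate 2 and 0.151 without IFNγ replicate 2. The window of SLC2A5 was the only window of a gene past an adjusted p-value of 0.05 that held a TATAAA box. Its 250 bases before the start follow, on GRCh38.p14, chr1:9069636-9069885 on the minus strand, 5′ to 3′, with TATAAA in capitals, 29 bases before the start.
SLC2A5: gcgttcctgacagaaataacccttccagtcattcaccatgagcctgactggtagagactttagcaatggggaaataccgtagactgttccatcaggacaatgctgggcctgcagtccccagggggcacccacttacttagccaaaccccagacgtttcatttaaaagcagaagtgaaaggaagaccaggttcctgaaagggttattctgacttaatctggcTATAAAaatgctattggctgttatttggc
These letters, on either strand, occur in 11.5% of all windows.

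The other 6 transporters did not pass. SLC10A2, the ileal carrier that takes bile acids back up, had 46 and 38 counts before and 88 and 56 after, the largest log2 fold change among them (0.74, SE 0.246, adjusted p = 0.0751, edgeR), with no overlap between groups. SLC6A19, which takes up neutral amino acids, had 13 and 14 counts before and 23 and 20 after (0.64, adjusted p = 0.304). These were the lowest counts of the 9 transporter genes. The log2 fold changes of SLC26A3 (0.26, adjusted p = 0.243) and of the glucose transporters SLC5A1 (0.15, adjusted p = 0.65) and SLC2A2 (-0.34, adjusted p = 0.231) were smaller. SLC9A3, the sodium-proton exchanger NHE3, was at 21.9 and 16.7 CPM before and 20.1 and 13.8 CPM after (-0.18, adjusted p = 0.617), with 41.1% of its exon length shared with PP7080 on the same strand.

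Lipid uptake and chylomicron assembly was the role in which no gene passed, 0 of the 10 tested, where 20.0% of all genes did. That count is from the edgeR fit with TMM scaling and condition as the only term. Under other settings given below some of these genes passed. Of the 10 genes 2 had an unadjusted p-value under 0.05 in edgeR, as had 5239 of all 14820 genes tested. The log2 fold changes ran from -0.24 to 0.33. The apolipoproteins lay on the positive side, with APOA4 at 1773 and 1666 CPM before and 2113 and 2167 CPM after (log2 fold change 0.32, SE 0.103, adjusted p = 0.07). APOC3 had 0.25 (adjusted p = 0.122) and APOA1 0.14 (adjusted p = 0.383), and the groups did not overlap in any of the 3. APOB was at 4853 and 4042 CPM before and 5662 and 3810 CPM after, so that both conditions had replicate 1 above replicate 2 and the groups overlapped (0.09, adjusted p = 0.771).

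The genes of the proteins that load and process the lipid did not pass either. MTTP, which transfers triglyceride onto apolipoprotein B, was at 222 and 248 CPM before and 226 and 244 CPM after (log2 fold change 0.00, SE 0.116, adjusted p = 0.99, edgeR). DGAT1 had 0.12 (adjusted p = 0.478), and MOGAT2, which acylates monoacylglycerol in the first step of triglyceride resynthesis, had 0.33 (adjusted p = 0.357) at 6.04 to 8.32 CPM. NPC1L1, the cholesterol importer that ezetimibe blocks, had -0.14 (adjusted p = 0.542). Of the fatty acid carriers, FABP1 was at 420.3 and 483 CPM before and 383 and 381 CPM after (-0.24, adjusted p = 0.182), and FABP2, the intestinal type, had -0.08 (adjusted p = 0.835) at 12.5 to 18.1 CPM. The summed level of the role was 12550 and 12040 CPM before and 14600 and 12730 CPM after. Most of that sum was APOB, APOA1, APOC3 and APOA4, none of which passed. Genes on the opposite strand overlap 43.2% and 44.2% of the exon length of APOA4 and VIL1. The gene at APOA4 had no row of counts, whereas USP37 at VIL1 had one. APOA1-AS, which also had a row, overlaps 11.2% of the exon length of APOA1 on the opposite strand. How reads in these stretches were counted is not given, so the levels of APOA4, VIL1 and APOA1 are uncertain.

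Of the remaining surface proteins, GPA33 rose. It encodes the A33 antigen, an immunoglobulin family protein of the basolateral membrane of intestinal epithelium. GPA33 was at 158 and 148 CPM in unstimulated cells and 226 and 228 CPM after IFNγ, with no overlap (log2 fold change 0.57, SE 0.109, adjusted p = 0.0122, edgeR). TM4SF4, a tetraspanin-like membrane protein, had 25 and 14 counts before and 26 and 12 after, with overlapping groups.

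The log2 fold change moved with the GC content of the genes, also among the enterocyte genes. Over the 14518 tested genes with an annotated sequence the Spearman rho of log2 fold change and GC content was 0.431, and over the 40 enterocyte genes, which share the 4 libraries, it was 0.411. All 4 genes that fell had a GC content of 36.1% to 41.1%, and all 7 that rose had 46.6% to 69.6%. Among genes under 45% GC, the median log2 fold change was -0.07 for 14 enterocyte genes and -0.30 for all 5588 genes. Between 45% and 55% it was 0.37 for 10 enterocyte genes and 0.08 for 4866 genes, and above 55% it was 0.21 for 16 and 0.21 for 4064.

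With the trend of GC content and length removed from each library, LCT (log2 fold change 1.21, adjusted p = 0.000901, edgeR) and CFTR (-1.09, adjusted p = 0.00149) were still called. EZR (0.47, adjusted p = 0.046) and SLC15A1 (0.43, adjusted p = 0.0471) still passed the adjusted p-value. SI (-0.67, adjusted p = 0.0682), EPS8 (-0.31, adjusted p = 0.145) and PLS1 (-0.04, adjusted p = 0.887) did not pass, so that CFTR was then the only enterocyte gene past the test as lower. GPA33 (0.38, adjusted p = 0.0661), SLC2A5 (0.30, adjusted p = 0.15), ALPI (0.23, adjusted p = 0.292) and ESPN (0.19, adjusted p = 0.454) no longer passed either. In turn SLC10A2 (0.99, adjusted p = 0.0266), SLC26A3 (0.52, adjusted p = 0.034) and APOB (0.51, adjusted p = 0.0451) passed as higher. Under this setting 15.8% of all genes passed, against 20.0% without it. What moved with GC content in these libraries was not tested.

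**Figure D4:**
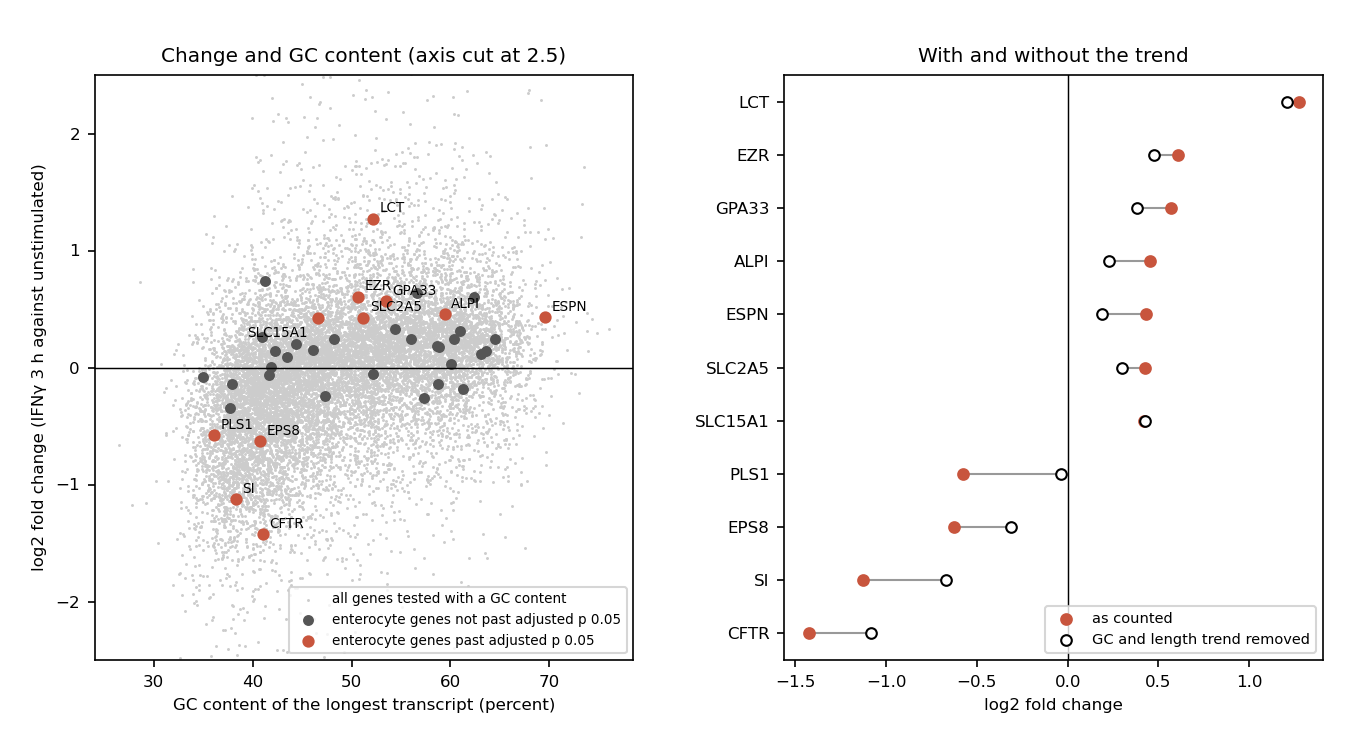
Left, log2 fold change after IFNγ against GC content in percent for all tested genes with a GC content (light gray) and the 40 enterocyte genes (dark gray, or red where past an adjusted p-value of 0.05), with the vertical axis cut at 2.5. Right, log2 fold change of the 11 genes past that threshold as counted (red) and with the trend of GC content and length removed (white). LCT and SLC15A1 hardly move, PLS1 moves from -0.58 to -0.04, and CFTR stays beyond -1.

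The 4 motifs, each searched on both strands and at any position, included TATAAA (the letters of the TATA box) and CAATAAA (the type bound by CDX2). The others were a site of the type bound by HNF1 and CAAAGTCCA (the type bound by HNF4). None of them is contained in another. RefSeq windows were matched for 32 of the 42 genes, which had 48 windows. The letters TATAAA were in the windows of 10 of the 32 genes. They lay on the gene's own strand at positions -31 to -29 in FABP1, SLC2A5, SLC6A19 and TM4SF4. In the rest they lay elsewhere or on the other strand. The CDX2-type motif was in 4 genes, the HNF1-type in 2 (CDHR2 and SLC26A3) and the HNF4-type in 2 (MYO1A and TREH). Counted by window, the letters TATAAA were in 22.9% of these 48 windows and in 11.5% of all 35116 windows. The CDX2-type motif was in 4 of the 48 and in 1406 of all 35116. The HNF1-type and the HNF4-type were each in 2 of the 48 windows (4.17%). Over all windows the HNF1-type was in 0.322% and the HNF4-type in 0.384%. Whether these shares differ was not tested. Of the 8 genes past an adjusted p-value of 0.05 that had a window, none held the HNF1-type or the HNF4-type motif. APOA1, APOB, APOC3, CDHR5, DGAT1, EPS8, ESPN, LCT, MOGAT2 and VIL1 had no window in the table.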

How the data were processed

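RNA-seq libraries of 4 Caco-2 samples were analyzed, 2 unstimulated (0 h) and 2 stimulated with IFNγ (3 h), grouped by GEO's labels. Counts as deposited by the authors are whole reads per Ensembl gene identifier, neither normalized nor pooled. Libraries were made with a TruSeq kit from 1 µg of RNA. The submitters' processing notes name HISAT 0.5.1 and HTSeq 0.6.1p1, but genome build, annotation and strand setting are not given in the sources used here. No other per-sample columns were left out (0).

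Counts of all genes were scaled by TMM, filtered with filterByExpr (14820 genes left) and tested with the quasi-likelihood test of edgeR 4.0.16 in R 4.3.3, with condition as the only term. Adjusted p-values are Benjamini-Hochberg over all genes tested. Called genes had an adjusted p-value under 0.05 and moved by more than 1 on the log2 scale. Standard errors were derived from the F statistic, as the ratio of the log2 fold change to its root. Changes between same-numbered libraries used a prior count of 2. Gene positions, exon length and GC content came from GENCODE 44 on GRCh37, and promoter windows from RefSeq on GRCh38.p14. All 42 genes had a row. Values in every library were given for genes past an adjusted p-value of 0.05, the 10 with the highest unstimulated RPKM and those not tested. The genes and lists were chosen with earlier results of these data known. The wider list left out ALPPL2, which is ALPG, and CIDEB was not analysed here.

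Alternatives were other scalings, DESeq2 1.42.0, other count filters, the replicate number as a block, removal of a GC and length trend by loess (span 0.3), each library left out, and an adjusted p-value under 0.01. The fits were also run on simulated data, which held no trend with GC content and no shared deviation of same-numbered libraries. Those runs therefore cannot show how either affects the values given here. A motif and a marker gene that were also examined are not reported here. Replicate libraries differed by more than sampling noise (chi-square per degree of freedom 7.38 and 8.44). With 2 libraries per group, precision rests on their spread more than on depth.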

Additional observations from a re-analysis of the deposited data

How the results depend on the processing

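LCT was called higher and CFTR lower under all 13 alternatives, and SI lower under 9 of them. The number called lower (2) was 1 with DESeq2, with the GC and length trend removed, with that and the replicate block, and at an adjusted p-value under 0.01, where 1 gene passed as higher and 1 as lower. Without IFNγ replicate 2 SI was not called lower either, with a log2 fold change of -0.75. With the trend removed, 1 gene passed an adjusted p-value of 0.05 as lower. The median log2 fold change of 0.16 was 0.20 with upper quartile scaling, 0.12 with library size only, 0.11 with the trend removed and 0.11 with the trend removed and the block. With single libraries left out it ran from 0.16 to 0.22. A fit with 1 library in a group assumes that it varies like the other group.

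The labels number the libraries 1 and 2 in both groups, and nothing says that a number marks a shared batch. Deviations of same-numbered libraries correlated (r = 0.415). With the replicate number as a block 14 enterocyte genes passed an adjusted p-value of 0.05 as higher, 5 as lower, and 28 of the wider list passed, while of all 14820 genes 2596 passed as higher and 2892 as lower. The added genes were VIL1, USH1C, CDHR5, ALPG, SLC10A2, APOA4 (adjusted p = 0.00343, edgeR) and APOC3 (0.00538) as higher and FABP1 (0.0359) as lower. With the block and the trend removed 13 passed as higher, 6 as lower and 34 of the wider list, while 36.6% of all genes passed.

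Values that changed sign were log2 fold changes of genes that did not pass as counted, and of these only FABP2 passed after the change of sign (adjusted p = 0.038, edgeR, with the trend removed and the block). With the trend removed, alone and with the block, these were MYO7B (-0.11 and -0.11), CDHR2 (-0.017 and -0.016), ANPEP (-0.025 and -0.028), MME (0.33 and 0.32), SLC2A2 (0.09 and 0.10), FABP2 (0.44 and 0.43), APOA1 (-0.085 and -0.082), DGAT1 (-0.11 and -0.11) and TM4SF4 (0.099 and 0.093). With library size only they were MYO7B (-0.012) and MTTP (-0.039), and MTTP was also at -0.002 with DESeq2 size factors, DESeq2 and at least 10 counts in every sample. With single libraries left out MYO1A ran from -0.184 to 0.036, MYO7B from -0.18 to 0.29, MGAM from -0.063 to 0.732, MME from -0.42 to 0.32, SLC5A1 from -0.059 to 0.441, SLC9A3 from -0.505 to 0.033, FABP2 from -0.35 to 0.14, APOB from -0.23 to 0.33, MTTP from -0.078 to 0.099 and TM4SF4 from -0.45 to 0.17. The cause was not tested. Depth limited MGAM, MME, SLC6A19 and TM4SF4, for which DESeq2 gave no adjusted p-value.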

Other observations

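A wider list of enterocyte genes of the same roles, none of them among the 42, was tested in the same fit. Of its 88 genes 78 were tested, and 3 were called, ALPP (given above) and SLC51B higher and ACSL3 lower, beside 7.28% of all genes. SLC51B encodes the beta subunit of the basolateral transporter by which enterocytes pass bile acids to the blood, and it had 663 and 499 counts in unstimulated cells and 1444 and 1083 counts after IFNγ (log2 fold change 1.10, standard error 0.117, adjusted p = 0.00181, edgeR). ACSL3, which activates long-chain fatty acids at lipid droplets, had 3489 and 2921 counts before and 1519 and 1054 counts after (log2 fold change -1.36, standard error 0.129, adjusted p = 0.00138, edgeR). In both genes the groups did not overlap. With the trend of GC content and length removed ACSL3 was at -0.74 (adjusted p = 0.00988) and no longer called, which left 2 called. At any fold, 9 of the 78 rose and 5 fell, where 9.02% of all genes passed as higher and 11.0% as lower, and the median log2 fold change was 0.09.

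By role, 2 of 22 other microvillus genes, 1 of 9 other hydrolases, 6 of 25 other transporters and 5 of 22 other lipid genes passed an adjusted p-value of 0.05, where 20.0% of all genes did. The 11 that passed without being called are named here after their values were seen. Among microvillus genes the actin-associated MISP (0.77) and the scaffold SLC9A3R1 (0.41) rose, these values being log2 fold changes, as are the following. Among transporters SLC43A2 (0.90) and SLC3A2 (0.72), which serve amino acids, and SLC46A1 (0.81), the proton-coupled folate carrier, rose, while SLC36A1 (-0.53), a proton-coupled amino acid carrier, and SLC19A3 (-0.64), a thiamine carrier, fell. Among lipid genes AGPAT2 (0.69), an acyltransferase of phosphatidic acid synthesis, and PLIN3 (0.47), a lipid droplet coat protein, rose. GPAM (-0.80), the mitochondrial acyltransferase that starts glycerolipid synthesis, and PLIN2 (-0.68), another droplet coat protein, fell. Adjusted p-values of the 11 ran from 0.00386 to 0.041 in edgeR's quasi-likelihood test. With the trend removed SLC9A3R1 (adjusted p = 0.429), PLIN3 (0.259) and GPAM (0.0793) no longer passed. SLC9A3R1 also lost its adjusted p-value with any single library left out (0.0512 to 0.187), PLIN3 without unstimulated replicate 1 (0.154) or IFNγ replicate 2 (0.099), and SLC36A1 without unstimulated replicate 1 (0.146).

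Of the 9 epithelial markers tested, 3 rose, 1 fell and 5 did not pass, and of the 5 liver markers, which Caco-2 cells also express, 3 fell. Of all genes 20.0% passed. KRT8 (log2 fold change 0.84, adjusted p = 0.00566, edgeR), KRT18 (0.88, adjusted p = 0.00873) and CDX2 (given above) rose, and KRT19 (-0.50, adjusted p = 0.0322) fell. EPCAM (0.09), CDH1 (0.23), CDH17 (-0.08), KRT20 (0.56) and LGALS4 (-0.03) did not pass. ALB (-1.12, adjusted p = 0.00831) and AFP (-1.08, adjusted p = 0.014) were called lower and FGB (-0.76, adjusted p = 0.0233) fell, while TTR (0.04) and SERPINA1 (0.24, adjusted p = 0.165) did not pass. The 3 liver genes that fell had a GC content of 39% to 41.2%, in the range where log2 fold changes ran low over all genes. In all 3 the fall was larger between the libraries numbered 2, for AFP -1.535 against -0.718 between those numbered 1. The part of these markers in the values of SI and CFTR was not tested.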
